A study of Mus musculus with 13 samples.

Results

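The 10 genes described here belong to the unfolded protein response, the programme by which a cell adjusts when misfolded proteins build up in the endoplasmic reticulum (ER). They are Hspa5, Hsp90b1, Calr, Pdia4, Dnajb9, Herpud1, Xbp1, Atf4, Ddit3 and Trib3. They were taken by symbol from a table of 34745 genes, each name matched 1 row, and all 10 were among the 17467 genes that passed the filter on low counts and were tested. The study measured RNA of the mouse olfactory bulb after exposure to fine particulate matter (PM2.5, airborne particles small enough to be inhaled deeply). In a 1st set of 7 libraries, 3 came from mice given PM2.5 at 3 mg/kg and 4 from untreated controls. In a 2nd set of 6 libraries, 3 came from mice given PM2.5 at 10 mg/kg and 3 from untreated controls. Both doses carry the words "/3 day" in the labels, and the sources used here give neither the meaning of these words nor the route of exposure nor what separates the sets. All animals are labelled wild type C57BL/6 and aged 7 to 8 weeks, and the series describes them as male. The labels number the samples within a group and do not say whether they came from separate animals, so a p-value covers the spread among these libraries, which may be technical.

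Protein folding in the ER is watched by a trio of membrane sensors, known as Ire1, Perk and Atf6. Ire1 splices the Xbp1 mRNA so that it encodes an active transcription factor. Perk lowers translation in general while raising that of Atf4, and Atf6 is cut in the Golgi to release a transcription factor. Together they raise the genes of ER chaperones and of ER-associated degradation, and under lasting stress the Atf4 targets Ddit3 (also called Chop) and Trib3. Counts per gene do not separate spliced from unspliced Xbp1, nor do they measure the translation of Atf4, so the values below are levels of total mRNA. In whole bulb tissue, fewer cells of a type and less RNA per cell cannot be told apart.

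All 10 are protein-coding genes, placed here by the deposited coordinates (mm10). Hspa5 (ENSMUSG00000026864) lies at chr2:34771970-34777547 on the plus strand and Trib3 (ENSMUSG00000032715) at chr2:152337422-152344032 on the minus strand. Calr (ENSMUSG00000003814, chr8:84841850-84846934, minus) and Herpud1 (ENSMUSG00000031770, chr8:94386438-94395377, plus) share a chromosome, as do Hsp90b1 (ENSMUSG00000020048, chr10:86690209-86705509, minus) and Ddit3 (ENSMUSG00000025408, chr10:127290774-127296288, plus). Pdia4 (ENSMUSG00000025823) is at chr6:47796141-47813430 (minus), Xbp1 (ENSMUSG00000020484) at chr11:5520659-5525893 (plus), Dnajb9 (ENSMUSG00000014905) at chr12:44205897-44210068 (minus) and Atf4 (ENSMUSG00000042406) at chr15:80255184-80257540 (plus).

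Depth and sex markers differed between the sets. Total counts were 14.3 to 14.7 M in the 3 mg/kg libraries and 13.03 to 14.1 M in 1st-set controls, against 20.2 to 25.5 M in the 10 mg/kg libraries and 15.4 to 27.0 M in 2nd-set controls. Xist, which marks an inactive X chromosome, ranged over 2245 to 2712 CPM (counts scaled to library size) in the 1st set (7 of 7 libraries) and 0.0992 to 0.555 CPM in the 2nd (6 of 6). The summed level of 4 Y-linked genes was 0 to 0.210 CPM in the 1st set and 177 to 230 CPM in the 2nd. The 1st set thus went against the series' description as male, and set, sex, depth and dose cannot be told apart across sets. All dose comparisons below are within a set. Markers of granule cells and bulb interneurons (8 genes) summed to 3779 to 4952 CPM and those of mitral and tufted cells (6 genes) to 2112 to 2630 CPM, so the defining markers of the labelled tissue were present in each library.

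Of the 10 promoters, 4 hold a sequence known from genes that respond to ER stress, shown here because it is what the sensors' transcription factors read. The window searched was the 250 bases before the RefSeq transcript start (GRCm38.p6), which was found for all 10 genes, and both strands were read. The ER stress response element, bound by Atf6 with NF-Y, was spelled CCAAT, 9 bases of any kind, then CCACG. It occurred in 37 of 32851 promoters (0.113%), and in 3 of these 10, those of Hspa5, Calr and Hsp90b1. Its second form, ATTGG, 1 base, then CCACG, occurred in 10 promoters (0.0304%), among them that of Herpud1. ATTGG is the reverse complement of CCAAT, so the forms share their boxes in the same order, with the first box turned round and a shorter gap. The 8-base element TGACGTGG, known for Xbp1 and Atf6, was in 185 promoters (0.563%) and in none of the 10. TGATGNAA, known for Atf4 paired with a C/EBP factor, was in 1134 promoters (3.45%) and in that of Herpud1 only among the 10. A match is a description of letters and not evidence of binding, and a window without one says only that these letters are not there. The matches are printed with 5 bases on each side, 5′ to 3′ along the strand of the gene. Capitals mark the boxes, and no match overlapped another.
Hspa5 (chr2:34772020-34772048, plus strand, 65 to 47 bases before the start): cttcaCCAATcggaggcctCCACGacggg
Calr (chr8:84847070-84847098, minus strand, 162 to 144 before, element on the opposite strand): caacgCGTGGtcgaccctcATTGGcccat
Hsp90b1 (chr10:86705633-86705661, minus strand, 212 to 194 before): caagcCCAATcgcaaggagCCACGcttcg
Hsp90b1 (chr10:86705528-86705556, minus strand, 107 to 89 before, element on the opposite strand): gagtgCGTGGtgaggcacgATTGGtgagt
Herpud1, second form (chr8:94386372-94386392, plus strand, 52 to 42 before): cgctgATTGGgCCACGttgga
Herpud1, Atf4 with C/EBP (chr8:94386312-94386329, plus strand, 112 to 105 before, element on the opposite strand): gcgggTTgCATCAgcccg
The deposited table starts Hspa5 at base 34771970, so its element lies inside the gene as the authors drew it and before the RefSeq start.

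Levels of different genes were compared in FPKM, the deposited value scaled by gene length and library total. In 2nd-set controls Calr, a lectin chaperone that holds newly made glycoproteins, was highest at 90.5 ± 9.02 FPKM (SD, n = 3). Atf4 followed at 64.6 ± 8.05 and Hsp90b1, the ER member of the Hsp90 family, at 54.5 ± 2.23 FPKM. Hspa5 (BiP, the main ER Hsp70 chaperone, which also holds the sensors inactive) had 28.5 ± 4.92 FPKM, Dnajb9 (an ER DnaJ co-chaperone of Hspa5) 25.2 ± 3.93, Pdia4 (a disulfide isomerase) 21.2 ± 1.15 and Xbp1 19.9 ± 1.48 FPKM. Each of these 4 overlapped its neighbour in the order across libraries. Herpud1, an ER membrane protein of the degradation machinery, had 10.4 ± 1.43 FPKM and the stress-induced transcription factor Ddit3 6.16 ± 0.625 FPKM. Trib3, a pseudokinase induced by Atf4 and Ddit3, was lowest at 0.212 ± 0.0397 FPKM and had only 6 to 22 counts per library over the series, so its fold changes are poorly determined. The order was nearly the same in the other groups. In the 10 mg/kg libraries Hsp90b1 (58.9 ± 5.53 FPKM) and Atf4 (57.9 ± 5.34 FPKM) overlapped and stood in the opposite order, and Pdia4 stood above Dnajb9. In the 3 mg/kg libraries and in 1st-set controls Dnajb9 (21.4 ± 2.23 and 19.9 ± 1.40 FPKM) and Hspa5 (19.0 ± 0.890 and 19.6 ± 2.49 FPKM) overlapped, with Dnajb9 first by mean.

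**Figure D1:**
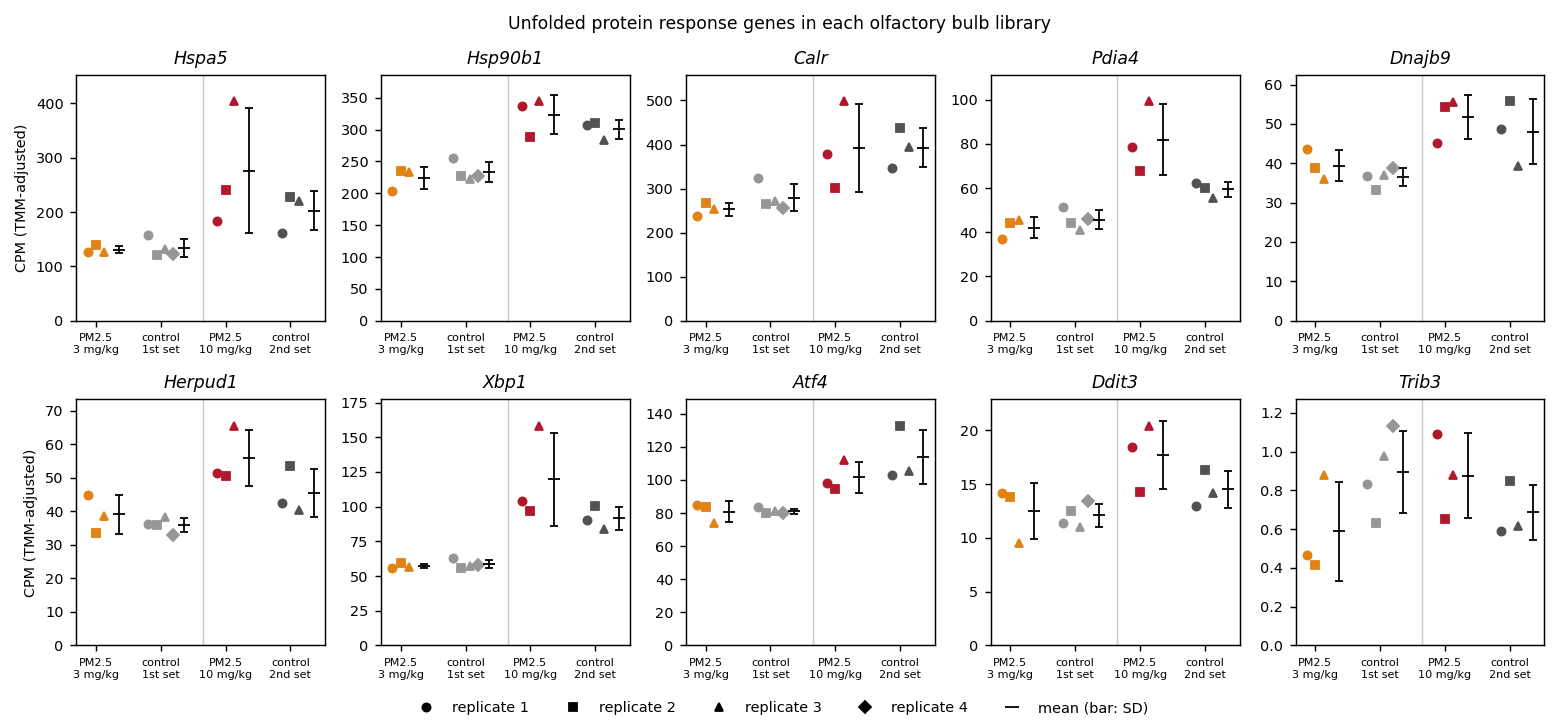
Level of each of the 10 genes in each of the 13 libraries, in CPM scaled by TMM factors, with the mean and SD of each group; PM2.5 groups stand left of the controls of their set. Replicate 3 at 10 mg/kg is the highest point for Hspa5 (404.5 CPM), Hsp90b1, Calr, Pdia4, Herpud1, Xbp1 and Ddit3. Pdia4 is the one gene whose 10 mg/kg libraries all lie above their controls.

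No gene of the 10 was called at 10 mg/kg (adjusted p under 0.05, edgeR quasi-likelihood test with Benjamini-Hochberg adjustment over all genes), where 112 of 17467 genes were (0.641%). By unadjusted p under 0.05, 3 of the 10 passed (Pdia4, Xbp1 and Herpud1), against 9.65% of all genes. The median log2 fold change of the 10 was 0.29 with 8 positive, and that of all genes was -0.01 with 47.2% positive. In 1 of the 10, Pdia4, all exposed libraries lay above all controls, and 6.08% of all genes had their groups apart in that direction. In 0 of the 10 all exposed libraries lay below all controls (4.36% of all genes).

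Among the chaperones, Pdia4 had the smallest p. It forms and rearranges disulfide bonds in secreted proteins. Pdia4 had 78.4, 67.8 and 99.4 CPM in the 10 mg/kg libraries, against 62.2, 60.2 and 55.7 CPM in 2nd-set controls. The groups did not overlap. Its log2 fold change was 0.46 (SE 0.13), a fold of 1.38 with a 95% interval of 1.14 to 1.68, and its adjusted p in edgeR's quasi-likelihood test was 0.164. Hspa5, whose mRNA is the customary readout of ER stress, had 184, 239.7 and 404.5 CPM in the 10 mg/kg libraries, against 161, 228 and 219 CPM in 2nd-set controls. Only replicate 3 of the exposed group stood well above the controls, and replicate 1 lay within their range. The log2 fold change of Hspa5 was 0.44 (SE 0.23, 95% interval -0.06 to 0.95, adjusted p = 0.605 in edgeR's quasi-likelihood test). Without exposed replicate 3 it was 0.08. Hsp90b1 had 337, 289 and 345 CPM in the 10 mg/kg libraries, against 308, 310.1 and 283 CPM in 2nd-set controls. Calr had 378, 300.5 and 499 CPM in the 10 mg/kg libraries, against 348, 437.5 and 394 CPM in 2nd-set controls. In both genes the groups overlapped, and for Calr the lowest and the highest library of the set were both exposed. The log2 fold change was 0.11 (SE 0.09) for Hsp90b1 and -0.003 (SE 0.15) for Calr. Dnajb9, which helps Hspa5 and restrains Ire1, had 45.2, 54.3 and 55.6 CPM in the 10 mg/kg libraries, against 48.7, 55.8 and 39.4 CPM in 2nd-set controls. The control range enclosed all of its exposed libraries, with a log2 fold change of 0.11 (SE 0.13).

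Herpud1, which organises the ER ubiquitin ligase complex, had 51.5, 50.5 and 65.5 CPM in the 10 mg/kg libraries, against 42.4, 53.6 and 40.3 CPM in 2nd-set controls. Control replicate 2 lay above 2 of the 3 exposed libraries. Its log2 fold change was 0.30 (SE 0.14, 95% interval 0.002 to 0.59, adjusted p = 0.509 in edgeR's quasi-likelihood test).

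Of the transcription factors, Xbp1 had 104, 96.9 and 158 CPM in the 10 mg/kg libraries, against 90.6, 100.4 and 83.7 CPM in 2nd-set controls. The exposed libraries were above the controls but for replicate 2, which was below control replicate 2. The log2 fold change of Xbp1 was 0.39 (SE 0.14, 95% interval 0.08 to 0.69, adjusted p = 0.345 in edgeR's quasi-likelihood test). Atf4 was the one gene of the 10 below its controls by more than its SE. It had 98.1, 94.25 and 112 CPM in the 10 mg/kg libraries, against 103, 133 and 106 CPM in 2nd-set controls. The groups overlapped through exposed replicate 3, and the log2 fold change was -0.17 (SE 0.10, adjusted p = 0.695 in edgeR's quasi-likelihood test). Ddit3, which promotes cell death under lasting stress, had 18.4, 14.3 and 20.4 CPM in the 10 mg/kg libraries, against 12.96, 16.3 and 14.2 CPM in 2nd-set controls. Exposed replicates 1 and 3 were above all controls and replicate 2 was among them, with a log2 fold change of 0.29 (SE 0.17). Trib3 had 1.09, 0.654 and 0.878 CPM in the 10 mg/kg libraries, against 0.592, 0.850 and 0.617 CPM in 2nd-set controls. At this depth a difference was not detectable, with a log2 fold change of 0.32 and a 95% interval of -0.46 to 1.102. Ddit3 lies over Mars on the opposite strand and over a second Ddit3 identifier on its own, Herpud1 over the antisense gene Gm15890 and Hsp90b1 over the pseudogene 1810014B01Rik, and Calr has a named pseudogene, Calr-ps. The sources used here do not say whether counting used strand, so reads of these genes may include some of their partners.

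The 10 mg/kg values were uneven across libraries. Each gene was also set, in each library, against the mean of the controls of its set on the log2 scale. The mean over the 10 genes was 0.13, 0.01 and 0.46 in the 10 mg/kg libraries, against -0.08, 0.16 and -0.08 in 2nd-set controls. In exposed replicate 3, 9 of 10 genes were above 0, led by Hspa5 (1.01), Xbp1 (0.79) and Pdia4 (0.74), and Atf4 was at -0.01. In control replicate 2 all 10 genes were above 0, the highest being Herpud1 at 0.25. These are the deepest libraries of the set, at 25.5 M counts for the exposed one and 27.0 M for the control. The median over all genes was 0.009 in exposed replicate 3 and 0.03 in control replicate 2. Without exposed replicate 3, the log2 fold changes were 0.15 for Xbp1, 0.31 for Pdia4, 0.18 for Herpud1, 0.19 for Ddit3, -0.20 for Calr and -0.23 for Atf4. Of the 10 genes, 2 then passed an unadjusted p under 0.05 and 0 were called. Without 2nd-set control replicate 3, 1 of the 10 passed an unadjusted p under 0.05. With both deepest libraries left out, an alternative chosen after seeing the data, 3 of the 10 passed an unadjusted p under 0.05 and again 0 were called.

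**Figure D2:**
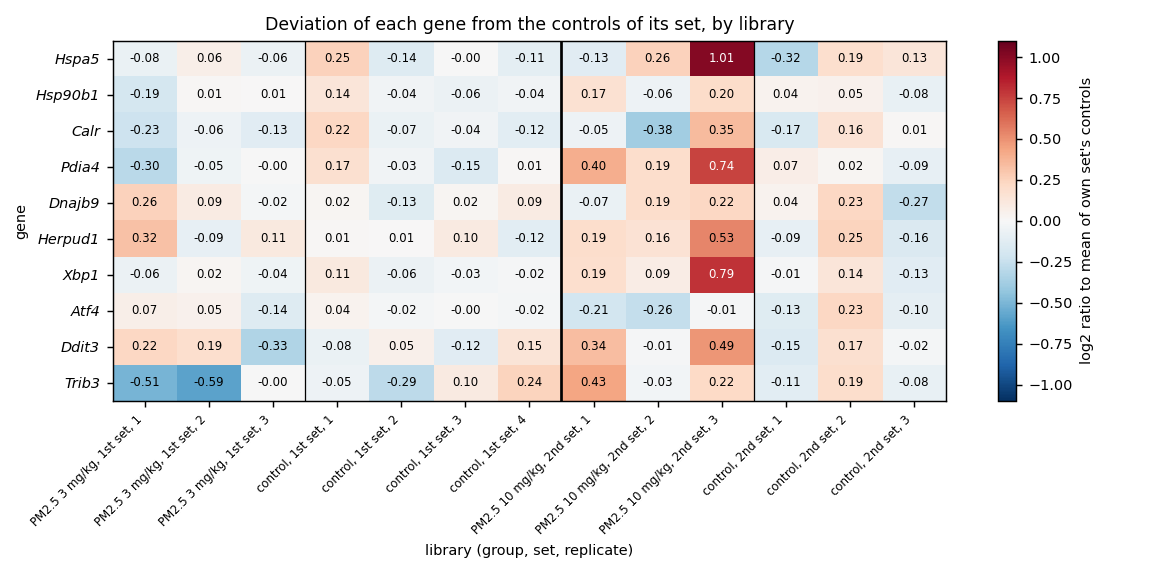
Log2 ratio of each gene (rows) in each library (columns) to the mean log2 CPM of the controls of its set. Replicate 3 at 10 mg/kg holds the 3 highest values of the map (Hspa5 at 1.01, Xbp1 at 0.79 and Pdia4 at 0.74), and control replicate 2 of the 2nd set is above 0 in all 10 rows.

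Markers of other tissue and cells also differed, some in the same library and some across the exposed group. Over 7 markers of cortex and striatum, the mean log2 ratio to 2nd-set controls was 0.23, -0.03 and 0.99 in the 10 mg/kg libraries, and their summed level was 163 to 208 CPM, against 149 to 179 CPM in 2nd-set controls. Red blood cell genes (5 genes) had a mean log2 ratio of 0.19, 1.04 and 1.56 in the 10 mg/kg libraries, with 114 to 302 CPM there against 97.2 to 119 CPM in 2nd-set controls. Choroid plexus markers (5 genes) summed to 5.51 to 8.98 CPM in the 10 mg/kg libraries, against 3.21 to 6.84 CPM in 2nd-set controls. Meningeal fibroblast markers (6 genes) summed to 71.5 to 129.5 CPM in the 10 mg/kg libraries, against 64.5 to 96.5 CPM in 2nd-set controls. Microglial markers (6 genes) summed to 289 to 346 CPM in the 10 mg/kg libraries, against 232 to 276 CPM in 2nd-set controls, and astrocyte markers (6 genes) to 1701 to 1878 CPM, against 1158 to 1433 CPM. In both of these lists every exposed sum lay above every control sum, the mean log2 ratio was 0.14, 0.19 and 0.51 for microglia and 0.35, 0.49 and 0.52 for astrocytes in the 10 mg/kg libraries, and 1 marker of each, C1qa and Gfap, was called higher at 10 mg/kg. By summed level, exposed replicate 3 was the highest library of the set in each of these lists but the astrocyte one, where replicate 2 was highest. Granule cell and interneuron markers (8 genes) summed to 4334, 4404 and 3779 CPM in the 10 mg/kg libraries, against 4530 to 4952 CPM in 2nd-set controls. Every exposed sum of this list thus lay below every control sum, with replicate 3 the lowest, and 0 of the 8 were called at 10 mg/kg. Exposed replicate 3 also had the highest sum of the set for markers of olfactory sensory neurons (368 CPM), oligodendrocytes (1758 CPM) and olfactory ensheathing cells (1332 CPM). In these lists the groups overlapped. It did not have the highest sum for mitral and tufted cell markers or for endothelial ones. No marker was at 0 in all 13 libraries. The part of these cells in the values of the 10 genes was not tested.

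At 3 mg/kg the 10 genes stood close to their controls. None was called, as was no gene at all (0%), none passed an unadjusted p under 0.05 (2.46% of all genes), and in none were the groups apart (3.71% of all genes higher and 2.91% lower). The median log2 fold change of the 10 was -0.03 with 3 positive, against 0.002 over all genes with 50.9% positive, and every adjusted p in edgeR's quasi-likelihood test was 1. Hspa5 had 126, 139 and 127 CPM in the 3 mg/kg libraries, against 158, 121, 133 and 123 CPM in 1st-set controls. The control range enclosed all exposed libraries, with a log2 fold change of -0.03 (SE 0.22, 95% interval -0.51 to 0.45). Xbp1 had 56.0, 59.2 and 56.8 CPM in the 3 mg/kg libraries, against 63.0, 56.1, 57.4 and 57.9 CPM in 1st-set controls. Atf4 had 85.0, 83.8 and 73.7 CPM in the 3 mg/kg libraries, against 83.4, 80.1, 81.0 and 80.1 CPM in 1st-set controls. Both genes overlapped with their controls, with log2 fold changes of -0.03 (SE 0.14) and -0.006 (SE 0.10). The 95% interval was -0.32 to 0.26 for Xbp1 and -0.21 to 0.20 for Atf4. Herpud1 had the highest log2 fold change, 0.12 (SE 0.13), with 44.97, 33.6 and 38.6 CPM in the 3 mg/kg libraries, against 36.2, 36.0, 38.4 and 33.0 CPM in 1st-set controls. Trib3 had the lowest, -0.60 (SE 0.38), with 0.468, 0.416 and 0.881 CPM in the 3 mg/kg libraries, against 0.831, 0.633, 0.978 and 1.13 CPM in 1st-set controls. For Herpud1, exposed replicate 2 lay among the controls and replicates 1 and 3 above them. For Trib3, exposed replicate 3 lay among the controls and replicates 1 and 2 below them. For the other 5 genes the log2 fold change was -0.14 for Calr, -0.12 for Pdia4, -0.06 for Hsp90b1, 0.05 for Ddit3 and 0.11 for Dnajb9. Markers of olfactory ensheathing cells (6 genes) summed to 1034 to 1154 CPM in the 3 mg/kg libraries, against 1166 to 1360 CPM in 1st-set controls. Granule cell and interneuron markers summed to 4244 to 4517 CPM, against 3909 to 4237 CPM. No marker of either list was called at 3 mg/kg, and the part of these cells was not tested.

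**Figure D3:**
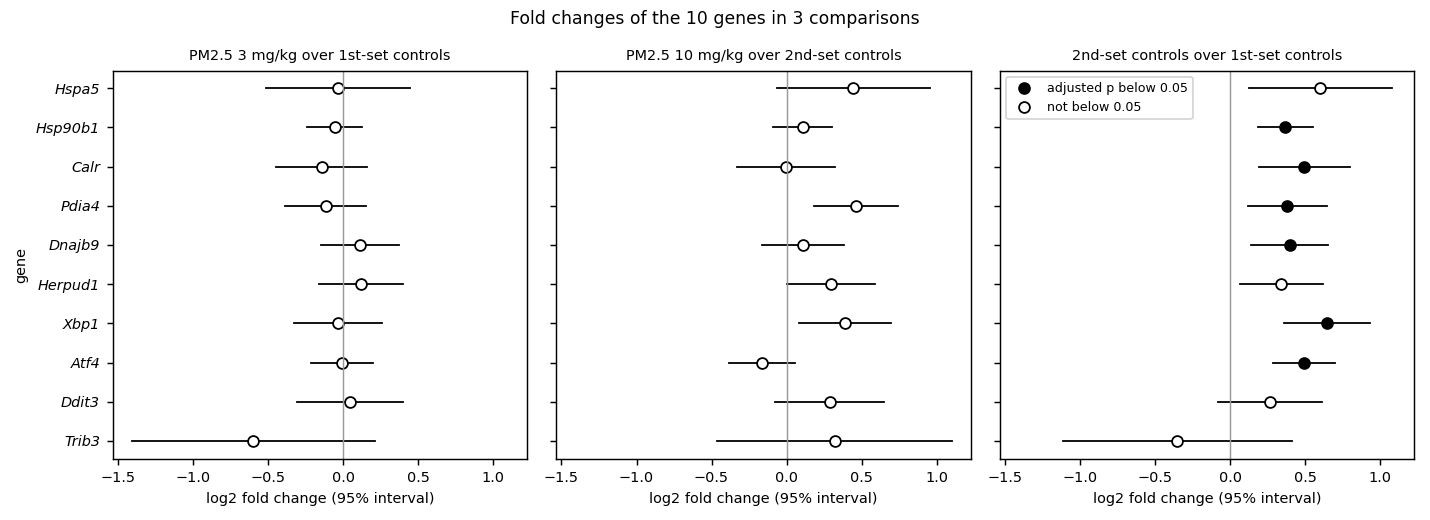
Log2 fold change of each gene with its 95% interval at 3 mg/kg and at 10 mg/kg, each against the controls of its set, and of 2nd-set against 1st-set controls; filled points have an adjusted p under 0.05. At neither dose is any point filled, and between the controls 6 of 10 are, all above 0.

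Whether the response at 10 mg/kg differed from that at 3 mg/kg was tested as a difference of the contrasts. None of the 10 genes was called, and 1 of 17467 genes was (0.00573%). By unadjusted p under 0.05, 1 of the 10 passed, against 5.99% of all genes. This was Pdia4, with a difference of 0.58 on the log2 scale (SE 0.18, 95% interval 0.19 to 0.97, adjusted p = 0.642 in edgeR's quasi-likelihood test). The median difference was 0.21 over the 10 genes, 8 of them positive, against -0.01 over all genes with 48.1% positive. Dose and set cannot be told apart in this comparison.

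The untreated bulbs of the 2nd set differed from those of the 1st in most of these genes. Of the 10 genes, 6 were called in 2nd-set against 1st-set controls, all higher, where 3364 genes were called (19.3%), 1837 of them higher (10.5%) and 1527 lower (8.74%). In 8 of the 10 every 2nd-set control lay above every 1st-set control, against 15.8% of all genes, and in 0 of the 10 below (14.6% of all genes). The median log2 fold change was 0.39 over the 10 genes and -0.02 over all genes. Xbp1 rose the most among those called. It had 90.6, 100.4 and 83.7 CPM in 2nd-set controls, against 63.0, 56.1, 57.4 and 57.9 CPM in 1st-set controls. The log2 fold change of Xbp1 was 0.64 (SE 0.13, adjusted p = 0.00671 in edgeR's quasi-likelihood test). Atf4 had 103, 133 and 106 CPM in 2nd-set controls, against 83.4, 80.1, 81.0 and 80.1 CPM in 1st-set controls. Its log2 fold change was 0.49 (SE 0.10, adjusted p = 0.00501 in the same edgeR test). The chaperones Hsp90b1 (0.37, adjusted p = 0.0112), Calr (0.49, adjusted p = 0.0261), Dnajb9 (0.40, adjusted p = 0.0329) and Pdia4 (0.38, adjusted p = 0.0438) also rose by this edgeR test. Hspa5 (0.60, adjusted p = 0.0722), Herpud1 (0.34, adjusted p = 0.0759), Ddit3 (0.26) and Trib3 (-0.35) were not called by it. Xbp1, Atf4 and Hsp90b1 were called in every alternative run that made this comparison, which the fit per set and the replicate block did not. Only these 3 were called without 1st-set control replicate 2, without 1st-set control replicate 3 and without 2nd-set control replicate 2, and 8 were called without 10 mg/kg replicate 3. Sex markers and depth moved with this comparison as given above. Meningeal fibroblast markers summed to 64.5 to 96.5 CPM in 2nd-set controls, against 169 to 335 CPM in 1st-set controls, and 4 of 6 were called. Endothelial markers (6 genes) summed to 166 to 233 CPM in 2nd-set controls, against 236.5 to 274 CPM in 1st-set controls, and 3 of 6 were called. The part of sex, depth and these cells cannot be told apart.

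Among themselves most pairs of the 10 genes were positively correlated, though to very different degrees. Across the 13 libraries, with each library taken as its log2 difference from the control mean of its set, Xbp1 and Pdia4 had the highest Pearson r of the 45 pairs (0.90), followed by Hsp90b1 with Pdia4 (0.86) and Hspa5 with Xbp1 (0.85). Atf4 had r of 0.53 with Calr, 0.37 with Dnajb9, 0.26 with Ddit3, 0.16 with Hspa5 and Herpud1, and 0.06 with Xbp1. It had -0.05 with Hsp90b1, -0.21 with Trib3 and -0.28 with Pdia4, the lowest pair. Apart from these, only Trib3 with Dnajb9 was negative (-0.04). These are descriptions over libraries that share controls and depth, and 1 library, 10 mg/kg replicate 3, is far from the rest for several genes. The r among the 10 genes was not computed without it. Over all tested genes, those most like Hspa5 included Nadk (r = 0.89), which makes NADP, Nsmf (0.89) and St3gal3 (0.87), a sialyltransferase. Without that library these had r of 0.62, 0.49 and 0.72 with Hspa5. Those most like Atf4 were Pwp1 (0.95), Psmd8 (0.95), a proteasome subunit, Calm2 (0.94), a calmodulin gene, and Eif3c (0.94), a translation initiation subunit, with r of 0.94 to 0.96 without that library. Most like Herpud1 were Ppp1r1b (0.92), a striatal marker in the list above, Tmem204 (0.92), Itpk1 (0.92) and Cdh13 (0.92), with r of 0.84 to 0.87 without it. None of the genes named here belongs to the pathway lists below.

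The wider pathway was read from 6 lists with 113 genes besides the 10, of which 110 were tested. At 10 mg/kg none was called by edgeR (0.641% of all genes), 14 had an unadjusted p under 0.05 (9.65% of all genes), and the median log2 fold change was 0.02 with 64 of 110 positive (47.2% of all genes, median -0.01). The 20 ER chaperones and folding enzymes had the highest median, 0.14, with 16 positive. The medians were 0.02 for the 11 sensors and activation factors, -0.008 for the 20 genes of ER-associated degradation, 0.02 for the 19 of translocation and export, -0.004 for the 32 of the Atf4 arm and integrated stress response and 0.07 for the 8 of ER stress cell death. At 3 mg/kg none of the 110 was called, 2 had an unadjusted p under 0.05 (2.46% of all genes), and the list medians ran from -0.10 for cell death to 0.06 for degradation.

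**Figure D4:**
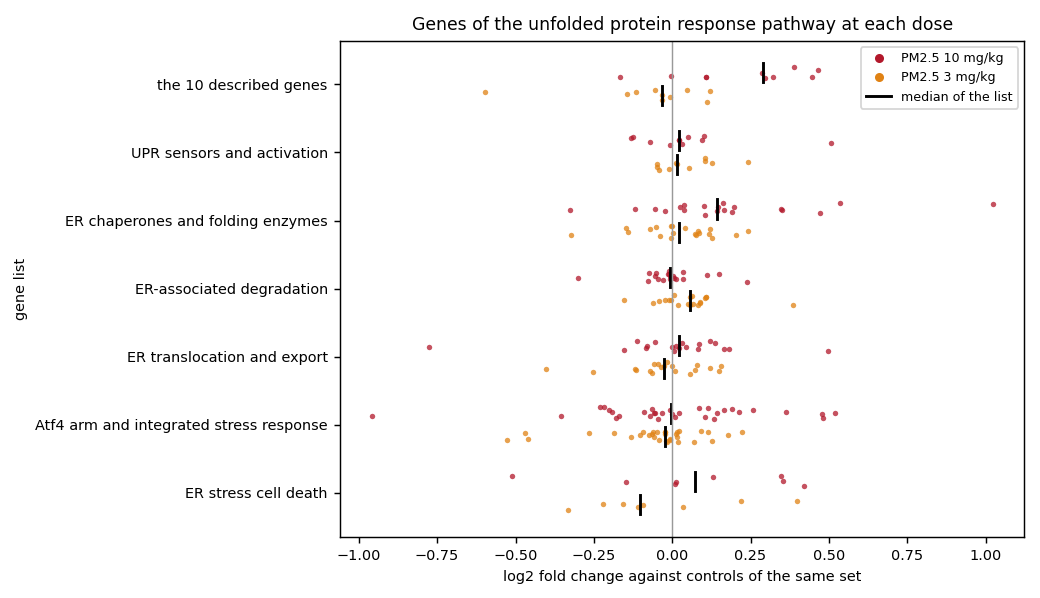
Log2 fold change of each gene at 10 mg/kg (upper points of each row) and at 3 mg/kg (lower points) against the controls of its set, for the 10 genes and the 6 pathway lists, with the median of each list as a bar. The medians of the 10 genes are 0.29 at 10 mg/kg and -0.03 at 3 mg/kg, and of the 6 lists the chaperone one is highest at 10 mg/kg, at 0.14.

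Wfs1, an ER membrane protein that restrains Atf6, had the smallest adjusted p of the pathway at 10 mg/kg (0.126 in edgeR's quasi-likelihood test). It had 63.4, 73.3 and 74.8 CPM in the 10 mg/kg libraries, against 45.3, 55.5 and 48.0 CPM in 2nd-set controls. All exposed libraries lay above the controls, with a log2 fold change of 0.51 (SE 0.13), and DESeq2 called it (adjusted p = 0.0469). Among chaperones, Dnajc3, an inhibitor of Perk and ER co-chaperone, had 77.2, 78.55 and 88.3 CPM in the 10 mg/kg libraries, against 73.2, 65.6 and 53.0 CPM in 2nd-set controls. The groups were apart, with a log2 fold change of 0.35 (SE 0.11). Manf, a secreted ER-resident factor, had 47.7, 35.4 and 57.9 CPM in the 10 mg/kg libraries, against 32.2, 37.95 and 31.6 CPM in 2nd-set controls. Exposed replicate 2 lay among its controls, and the log2 fold change was 0.47 (SE 0.15). Sdf2l1, Creld2 and Pdia6 are named because of their values, outside the rule, as the other chaperones with an unadjusted p under 0.05. Sdf2l1 had 12.5, 8.81 and 25.7 CPM in the 10 mg/kg libraries, against 8.62, 9.005 and 5.43 CPM in 2nd-set controls, and a log2 fold change of 1.02 (SE 0.32). In Sdf2l1 and in Pdia6 (95.7, 86.15 and 140.9 CPM in the 10 mg/kg libraries, against 81.8, 88.5 and 82.8 CPM in 2nd-set controls), replicate 3 was again the highest library. Creld2 had 14.4, 12.6 and 22.1 CPM in the 10 mg/kg libraries, against 10.9, 11.8 and 11.2 CPM in 2nd-set controls, with the groups apart. Exposed replicate 3 was the highest library of the set for Wfs1, Dnajc3, Manf and Creld2 as well.

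In the degradation list at 10 mg/kg, Os9, a lectin of ER-associated degradation, had a log2 fold change of 0.24 (SE 0.10) and Sel1l, the adaptor of its ubiquitin ligase, -0.30 (SE 0.17). The groups of Os9 were apart. Sel1l had 203, 123 and 128 CPM in the 10 mg/kg libraries, against 193, 177 and 190 CPM in 2nd-set controls, so exposed replicate 1 lay above all controls. Sec24d, a coat subunit of ER export vesicles, was at 0.50 (SE 0.16) with its groups apart, and Ssr3 at 0.18 (SE 0.10). In the Atf4 arm, Ddit4, an inhibitor of mTORC1, had a log2 fold change of 0.52 (SE 0.16) and Ppp1r15a (Gadd34), which restores translation by dephosphorylating eIF2α, -0.36 (SE 0.13). The other genes of this list with an unadjusted p under 0.05, named for their values and outside the rule, were Atf3 at -0.96 (SE 0.40), Eif2ak2 at 0.48 (SE 0.21), Slc7a5 at 0.21 (SE 0.08) and Eif2ak1 at -0.18 (SE 0.08). Ppp1r15a averaged 12.8 ± 1.69 CPM in the 10 mg/kg libraries, against 16.3 ± 1.40 CPM in 2nd-set controls (SD, n = 3 each), with the groups apart. At cell death, Bbc3 was at 0.35 (SE 0.18) and Bcl2l11 at -0.51 (SE 0.37). Bbc3 had 12.1, 7.70 and 7.42 CPM in the 10 mg/kg libraries, against 6.45, 7.34 and 7.40 CPM in 2nd-set controls. Bcl2l11 had 13.1, 3.57 and 5.71 CPM in the 10 mg/kg libraries, against 11.7, 7.96 and 12.4 CPM in 2nd-set controls. Without 10 mg/kg replicate 2, Manf (adjusted p = 0.0416) and Ddit4 (adjusted p = 0.0240) passed the edgeR threshold. Without 2nd-set control replicate 1, Dnajc3 (adjusted p = 0.0482 in edgeR's test) and Slc7a11, a cystine transporter named here for its value alone, passed it.

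At 3 mg/kg the gene of smallest p was Atf5, a factor translated under stress like Atf4. It had 35.7, 29.4 and 34.8 CPM in the 3 mg/kg libraries, against 53.1, 46.9, 41.6 and 50.3 CPM in 1st-set controls. All exposed libraries lay below the controls, with a log2 fold change of -0.53 (SE 0.19) and an adjusted p of 1 in edgeR's quasi-likelihood test. Edem1, which sends misfolded glycoproteins to degradation, had 35.2, 27.1 and 22.2 CPM in the 3 mg/kg libraries, against 22.6, 21.25, 20.9 and 21.5 CPM in 1st-set controls. Exposed replicate 3 lay among its controls, and the log2 fold change was 0.39 (SE 0.15). Ppp1r15a was at -0.27 (SE 0.12), and the other leading genes of the lists ran from -0.32 (Pdia5) through 0.10 (Atf6), 0.11 (Ubxn4), 0.15 (Serp1), 0.16 (Sec31a), 0.22 (Bak1), 0.24 (Wfs1) and 0.24 (Creld2) to 0.40 (Casp12), all with an adjusted p of 1 in edgeR's test.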

How the data were processed

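RNA of 13 olfactory bulb samples was sequenced, 1 library per sample, from RNeasy extracts and TruSeq Stranded Total RNA libraries, per the labels' protocols. The submitters' processing notes name HISAT2 and mm10. Versions, the counting program, its strand setting and the annotation were not given in the sources used. The authors deposited a raw count and an FPKM value per gene and library. For 2894 genes with at least 1000 counts in each library, count over FPKM and library total was constant across libraries within 5.88e-07 (relative), so FPKM carries depth scaling only.

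Counts were tested with edgeR 4.0.16 (genes kept by filterByExpr by group, TMM factors, a robust quasi-likelihood fit of 4 groups over 13 libraries with 9 residual degrees of freedom) in R 4.3.3, with Benjamini-Hochberg adjustment over 17467 genes and a threshold of 0.05. CPM are counts over TMM-scaled totals. SE and 95% intervals follow from the F statistic, and the scripts were tested on simulated data. No 2 replicates agreed within sampling noise (lowest chi-square per gene 5.96). Of the genes, 34344 matched GENCODE M21 by identifier and 27763 had its coordinates. Promoter sequences are RefSeq's.

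The 10 genes, the pathway and marker lists and the naming rule (in each dose comparison, each called pathway gene and the 2 of smallest p per list; for 3 genes, the 4 most correlated, of which 1 is not reported here) were chosen with earlier results of these data known. Alternatives were RLE factors, no filter or 1 CPM in every library, limma 3.58.1 on log2(FPKM + 1) or log2(FPKM + 0.1), DESeq2 1.42.0, a fit per set, a replicate block and each library left out.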

Additional observations from a re-analysis of the deposited data

Results flagged for a closer look

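Single distant libraries were looked for in 1st-set controls, the one group of 4, and 1 of the 10 genes, Hsp90b1, had such a library. Control replicate 1 was at 256 CPM, against 223 to 227 CPM in the other 3, and the gap to its nearest neighbour relative to the whole range passed Dixon's 95% critical value for 4 samples. Chance marks about 1 in 20 groups, and 10 were examined. The same library was also the highest of the 4 controls for Hspa5, Xbp1, Calr, Pdia4 and Atf4.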

How the results depend on the processing

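No gene of the 10 was called at 3 mg/kg, at 10 mg/kg or in the difference of the responses under any alternative run, and the smallest adjusted p of any of them at 10 mg/kg was 0.0726, without 10 mg/kg replicate 2. Between the controls of the sets, 3 of the 10 were called by limma on log2(FPKM + 1) and on log2(FPKM + 0.1), and 3 to 8 with 1 library left out. Of the pathway genes at 10 mg/kg, DESeq2 called 1, and 0 to 2 were called with 1 library left out. Over all genes, the count at 3 mg/kg was 17 by DESeq2, 2 by limma on log2(FPKM + 1), 9 in a fit per set, 1 with both deepest libraries of the 2nd set left out, and 0 to 2 with 1 library left out. At 10 mg/kg it was 69 with at least 1 CPM in every library, 281 by DESeq2, 4 in a fit per set, 5 with the replicate block and 21 to 138 with 1 library left out. The cause of these shifts was not tested. Values near 0 changed sign. Calr at 10 mg/kg was 0.00034 in a fit per set. Dnajb9 in the difference was 0.017 by limma at either pseudocount and 0.0571 without both deepest libraries. With 1 library left out, log2 fold changes at 3 mg/kg ran from -0.0835 to 0.0578 for Hspa5, -0.0603 to 0.0056 for Xbp1, -0.0439 to 0.0483 for Atf4, -0.0552 to 0.202 for Ddit3 and -0.0952 to 0.00821 for Hsp90b1. At 10 mg/kg they ran from -0.199 to 0.151 for Calr and -0.0177 to 0.212 for Dnajb9, and in the difference from -0.0548 to 0.295 for Calr and -0.130 to 0.101 for Dnajb9. The labels do not say whether replicate numbers pair the samples, and these few libraries cannot decide it. The correlation of deviations between same-numbered libraries was 0.004, 0.06 and 0.01 in the 1st set and 0.13, -0.15 and -0.34 in the 2nd. Between differently numbered libraries it ran from -0.06 to 0.06 in the 1st set and from -0.38 to 0.45 in the 2nd. With the replicate block 0 of the 10 genes were called at either dose. Trib3 had 6 to 22 counts per library, and its 95% intervals are the widest of the 10 genes at both doses.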
